A study of Homo sapiens with 8 samples.

Results

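OVCAR3 cells, an ovarian cancer line, were profiled by RNA-seq in 8 libraries, 2 in each of 4 groups, and a set of 192 genes was selected on its measured values as low in the control siRNA libraries alone. The siControl and siTARG1 cells were transfected for 48 h with 30 nM of a control siRNA or of an siRNA against TARG1 (gene symbol OARD1), a hydrolase that removes ADP-ribose from proteins. The other groups, RACK1-WT and RACK1-Mut, were stable lines that carried a lentiviral shRNA against RACK1, a protein of the small ribosomal subunit, together with an HA-tagged wild-type or ADP-ribosylation site mutant RACK1, induced over 48 h by Dox at 1 µg/ml. Neither RACK1 line received an siRNA, and neither siRNA group received Dox or a vector, so that transfection, Dox, the integrated vectors and line selection cannot be told apart in any difference between the siRNA groups and the RACK1 lines.

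CPM was the exon count of a gene scaled to a total of 1000000 in the library. A gene was chosen when the higher of the 2 siControl CPM values was under 0.6 times the lowest CPM of the other 6 libraries, and that lowest CPM was at least 5. These 192 genes were 1.89% of the 10183 rows whose lowest CPM in the other 6 libraries was at least 5, of 20165 rows in all. All 192 passed the filter on low counts among the 14024 genes tested. Of these, 191 were annotated as protein coding, 1 had no name in the annotation used here, and 2 joined several genes. The same rule with the siTARG1 libraries in place of the siControl libraries chose 235 genes, and with the RACK1-WT or the RACK1-Mut libraries it chose 0 genes each. For a RACK1 line the other 6 libraries include the other RACK1 line. Between these lines 98.2% of all genes tested differed by less than 1.67-fold, so the rule could choose few genes there.

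Exon counts per library ranged from 30989049 to 42668783. OARD1 was at 47.5 and 50.5 CPM in the siControl libraries and at 3.15 and 3.97 CPM in the siTARG1 libraries, and the 3′ UTR of RACK1 was at 288 to 335 CPM in the 4 siRNA libraries and at 15.8 to 19.3 CPM in the 4 RACK1 libraries. All 10 ovarian carcinoma markers were at 1 CPM or more in every library, with summed levels of 3950 to 4160 CPM in siControl, 2600 to 2690 CPM in siTARG1 and 4220 to 4350 CPM in the RACK1 lines. The summed fibroblast markers stayed between 7.38 and 9.6 CPM, the leukocyte markers between 4.25 and 8.61 CPM and the endothelial markers between 3.44 and 11.8 CPM, and none of the marker genes was chosen. The labels do not say whether the libraries of a group came from separate cultures. The study's methods describe repeats of its sequencing experiments as independent biological samples, without tying them to single libraries, and p-values measure the spread between these libraries.

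Small interfering RNAs are loaded into Argonaute proteins and direct the cleavage of the transcript they match in full. They can also lower other transcripts whose 3′ UTR pairs with the short seed near their 5′ end, in the way of a microRNA, and a control siRNA is no exception. A gene that is low in control siRNA cells appears as raised in every group compared with them.

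The sequence of the control siRNA was not given in the sources used here. The 3′ UTRs of the genes were therefore searched for shared words, with no sequence to match them to. Whether pairing of an siRNA with a 3′ UTR lowered any of these genes was not tested. Among the 8137 words of 7 bases with at least 30 sites in the longest annotated 3′ UTRs of 191 of the 192 genes, GAATATA had the highest density relative to all genes tested. It occurred 0.212 times per kb in these genes, 0.096 times per kb in the 13744 genes tested that had a 3′ UTR, and 0.0705 times per kb in the genes low in siTARG1 only. The ratio of 2.2 stood beside a median of 1.03 over all 8137 words and 2.01 for the next word, GATAACC. The words TGAATAT and AGAATAT, each of which overlaps GAATATA in 6 bases, were the third and the fourth in the order, with ratios of 1.84 and 1.78. These are descriptions of words picked for their density, and only the strand of the transcript was searched.

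Of 17 genes named for the lowest ratio of siControl to the other libraries or for the highest CPM floor, 5 held the word and 12 did not. Those without it included L1CAM, MAGEC2 and FAM131C, which had the lowest ratios of the set. The 5 genes are shown with 1 site each, GAATATA in capitals with 11 bases on either side, 5′ to 3′ on the strand of the transcript. They were read from the GRCh37 transcripts of Gencode and found at the same place in the GRCh37 genome. The first is in the 3′ UTR of SETD7, a lysine methyltransferase, at chr4:140428689-140428717 on the minus strand.
SETD7: catgatagaatGAATATAtttaaatgaag
The next is in NMUR1, a receptor for neuromedin U, at chr2:232388026-232388054 on the minus strand.
NMUR1: tgcaacaatatGAATATAcataacaatac
TBC1D5, a Rab GTPase-activating protein of endosomal sorting, holds its site at chr3:17199833-17199861 on the minus strand.
TBC1D5: ttttaaatcctGAATATAttgtgttttgt
CAV2, a caveolin of the plasma membrane pits called caveolae, holds 2 sites, the first at chr7:116146617-116146645 on the plus strand.
CAV2: tggcatactgaGAATATAcaatgatcctg
UHMK1, a serine/threonine kinase, holds its site at chr1:162496813-162496841 on the plus strand.
UHMK1: gctttcttgatGAATATAaaaatgttgtc
The gene with the most sites was TULP3, an adaptor of transport into the primary cilium, with 5 sites in a repeat. The first pair lies at chr12:3048723-3048751 and chr12:3048780-3048808 on the plus strand.
TULP3 site 1: gaatgatctctGAATATAtaaaacacaca
TULP3 site 2: gaacgacccctGAATATAtaaaacacaca

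The word was found in the 3′ UTR of 77 of the 191 genes (40.3%), and in 15.1% of all genes tested. It was found in 15.2% of the genes low in siTARG1 only. Longer 3′ UTRs hold more words, and the share was therefore compared within classes of length. Of 3′ UTRs under 1000 bases, 5 of 40 in these genes (12.5%) and 3.39% of those of all genes tested held the word. Between 1000 and 2000 bases the shares were 35.0% and 12.3%, between 2000 and 4000 bases 46.2% and 23.3%, and from 4000 bases on 60.9% and 42.1%. The share was higher in the genes low in siControl only in each of the 4 classes, although the word was picked for its density in these same genes. The word of the highest density in the genes low in siTARG1 only was another one, GAACATA, which differs from GAATATA in the base in the middle. It was found in 37% of those genes, in 8.38% of the genes low in siControl only and in 9.47% of all genes tested.

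The relation of the word to siControl levels was also described in genes that the rule did not choose. Among genes outside the set with at least 5 CPM in each of the other 6 libraries, the median log2 ratio of siControl to the RACK1 lines (mean CPM + 0.5) was 0.038 in 8297 genes without the word. It was -0.129 in 1223 genes with 1 site, -0.286 in 238 genes with 2 sites and -0.346 in 77 genes with 3 or more sites. The median log2 ratio of siTARG1 to the RACK1 lines in the same 4 groups of genes was 0.048, 0.017, -0.058 and -0.076. For GAACATA, in genes outside both sets, the order of the siRNA groups was the other way round. The siTARG1 medians were 0.072 in 8702 genes without that word, -0.135 in 794 genes with 1 site, -0.376 in 117 genes with 2 sites and -0.433 in 23 genes with 3 or more, and the siControl medians were 0.016, 0.003, 0.032 and -0.048. The lengths of the 3′ UTRs moved with the number of GAATATA sites, from a median of 1189 bases without a site to 6274 bases with 3 or more. For GAACATA they moved from 1274 bases without a site to 8603 bases with 3 or more. The medians for GAACATA were not compared within a class of length. For GAATATA within 3′ UTRs of 2000 to 4000 bases, where the median lengths were between 2734 and 3078 bases, the median log2 ratio of siControl to the RACK1 lines was 0.048 without a site, -0.117 with 1 site and -0.412 with 2 or more. The siTARG1 medians in the same genes were 0.064, 0.059 and -0.007. The genes chosen by the rule were left out of these medians, and both ratios share the RACK1 libraries. The cause of the differences between these medians was not tested.

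**Figure D1:**
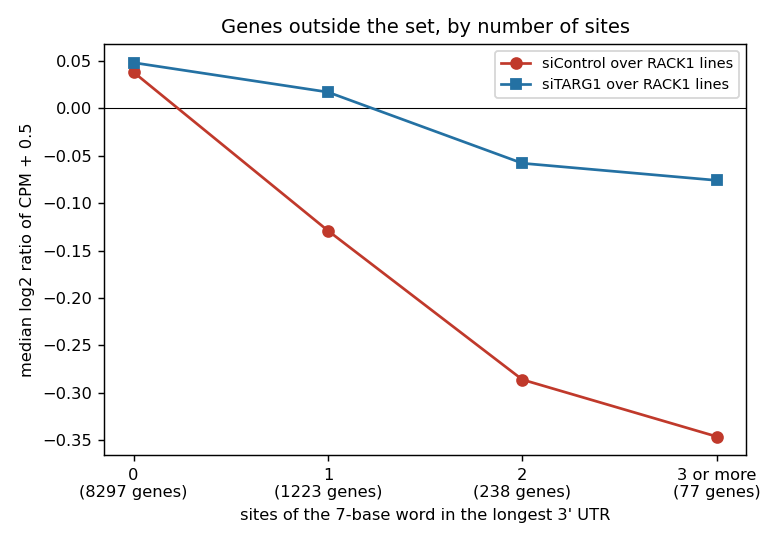
Median log2 ratio of mean CPM + 0.5 (y axis) for siControl (red circles) and siTARG1 (blue squares) over the RACK1 lines, by the number of sites of the 7-base word in the longest 3′ UTR (x axis, with the number of genes), in genes that the rule did not choose. The red medians run from 0.038 without a site to -0.346 with 3 or more, and the blue medians from 0.048 to -0.076.

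The levels that chose the genes are a description and were not tested. The summed CPM of the 192 genes was 4562 and 4664 in the siControl libraries, 10456 and 10773 in the siTARG1 libraries, 13418 and 13610 in the RACK1-WT libraries and 13179 and 13665 in the RACK1-Mut libraries. The median gene was at 13.1 CPM in siControl, 31.0 CPM in siTARG1, 38.3 CPM in RACK1-WT and 38.9 CPM in RACK1-Mut. The mean of the 6 other libraries was between 1.72 and 70.9 times the siControl mean, with a median of 2.69. It was at least 2 times the siControl mean in 171 genes, at least 3 times in 65 genes and at least 5 times in 21 genes. The higher and the lower siControl library differed by a median of 1.07-fold over the 192 genes and by at most 1.67-fold. The lowest exon count of any of the genes was 18 in each siControl library and 164 in the other libraries.

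**Figure D2:**
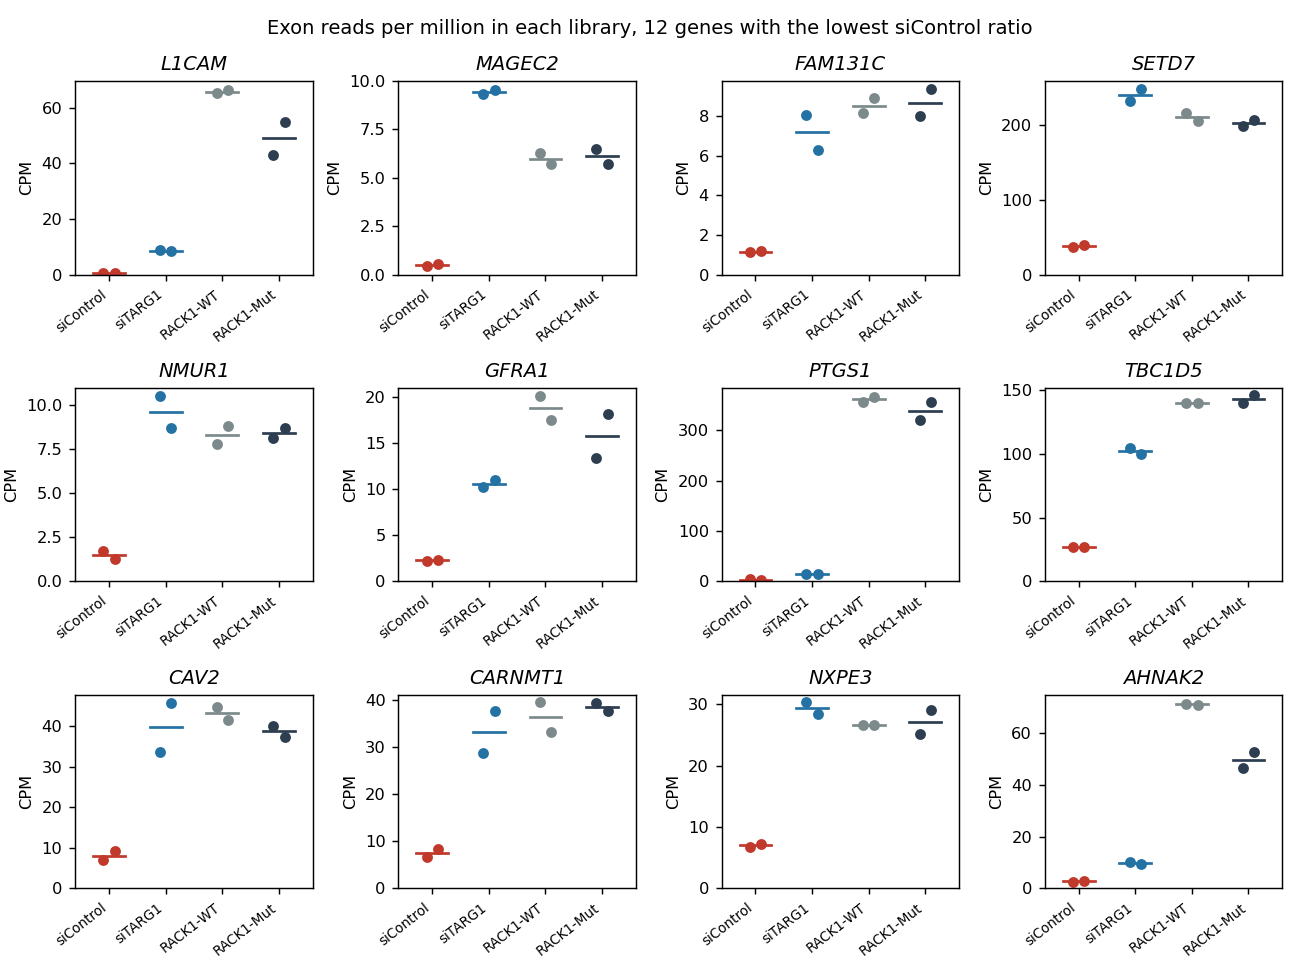
CPM (y axis, from 0) in each of the 8 libraries for the 12 genes with the lowest ratio of siControl to the other libraries. Points are libraries, 2 per group, and the short lines are their means. The siControl points lie lowest in each panel, and the RACK1 points stand far above the siTARG1 points for L1CAM, PTGS1 and AHNAK2.

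L1CAM, a neural cell adhesion molecule, was at 0.614 and 0.603 CPM in siControl, at 8.74 and 8.38 CPM in siTARG1, at 65.3 and 66.3 CPM in RACK1-WT and at 43.0 and 55 CPM in RACK1-Mut. Its level had 3 separate ranges, lowest in siControl, in between in siTARG1 and highest in the RACK1 lines. MAGEC2, a cancer-testis antigen that binds ubiquitin ligases, was at 0.442 and 0.571 CPM in siControl, at 9.32 and 9.55 CPM in siTARG1 and at 5.7 to 6.51 CPM in the RACK1 lines. It was highest in siTARG1, with no overlap with the RACK1 lines.

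SETD7 was at 37.2 and 40.0 CPM in siControl, 232 and 248 CPM in siTARG1, 216 and 205 CPM in RACK1-WT and 199 and 207 CPM in RACK1-Mut. The other 6 libraries averaged 5.64 times the siControl mean, in the coding sequence 4.86 times and in the 3′ UTR 5.86 times. TBC1D5 was at 26.8 and 27.3 CPM in siControl, 105 and 99.7 CPM in siTARG1 and 140 to 146 CPM in the RACK1 lines. In contrast to SETD7, its siTARG1 libraries lay below those of the RACK1 lines. NMUR1 was at 1.72 and 1.24 CPM in siControl, 10.5 and 8.71 CPM in siTARG1 and 7.78 to 8.82 CPM in the RACK1 lines, where the last 2 overlapped. NXPE3 was at 6.73 and 7.23 CPM in siControl, 30.4 and 28.5 CPM in siTARG1 and 25.1 to 29.0 CPM in the RACK1 lines. CARNMT1, which methylates carnosine, was at 6.74 and 8.24 CPM in siControl, 28.9 and 37.8 CPM in siTARG1 and 33.3 to 39.6 CPM in the RACK1 lines. FAM131C was at 1.15 and 1.17 CPM in siControl, 8.05 and 6.3 CPM in siTARG1 and 8.0 to 9.35 CPM in the RACK1 lines. For these 4 genes the siTARG1 and RACK1 libraries overlapped.

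GFRA1, a co-receptor for the neurotrophic factor GDNF, was at 2.19 and 2.35 CPM in siControl, 10.2 and 11 CPM in siTARG1 and 13.4 to 20.1 CPM in the RACK1 lines. PTGS1, the cyclooxygenase COX-1 of prostaglandin synthesis, was at 3.71 and 3.02 CPM in siControl, 14.9 and 15.3 CPM in siTARG1, 357 and 366 CPM in RACK1-WT and 321 and 356 CPM in RACK1-Mut. AHNAK2, a large scaffold protein, was at 2.41 and 2.85 CPM in siControl, 10.1 and 9.23 CPM in siTARG1, 71.5 and 71 CPM in RACK1-WT and 46.6 and 52.7 CPM in RACK1-Mut. In these 3 genes the siTARG1 libraries were also below all RACK1 libraries, by the most in PTGS1.

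The 5 genes with the highest floor, by CPM and not per length, were ARPC1B, HIGD1A, LMAN1, CREG1 and UHMK1. ARPC1B, a subunit of the actin-nucleating Arp2/3 complex, was at 214 and 213 CPM in siControl, 451 and 430 CPM in siTARG1 and 370 to 409 CPM in the RACK1 lines. UHMK1 was at 116 and 118 CPM in siControl, 219 and 263 CPM in siTARG1 and 332 to 377 CPM in the RACK1 lines. LMAN1, a cargo receptor from the endoplasmic reticulum to the Golgi, was at 113 and 124 CPM in siControl, 219 and 245 CPM in siTARG1 and 282 to 287 CPM in the RACK1 lines. CREG1 was at 106 and 97.2 CPM in siControl, 229 and 218 CPM in siTARG1 and 232 to 241 CPM in the RACK1 lines. The row of HIGD1A, a mitochondrial protein, also holds CCDC13 and 1 more gene, and was at 116 and 124 CPM in siControl, 231 and 257 CPM in siTARG1 and 328 to 388 CPM in the RACK1 lines.

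Just inside the threshold lay PTPRJ, LIF and IGSF8, with ratios of 0.5996, 0.5998 and 0.5999 of the higher siControl to the lowest other CPM. Just outside lay CDH1, RASA2 and TMTC3, with ratios of 0.6007, 0.6016 and 0.6022. CDH1, the epithelial cadherin, was at 103 and 102 CPM in siControl, 300 and 297 CPM in siTARG1 and 171 to 188 CPM in the RACK1 lines, and IGSF8 was at 29.3 and 28.6 CPM in siControl and 48.8 to 50.7 CPM in the other 6 libraries. The ratios ran on across the threshold without a gap.

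By function the genes were mixed. Of 28 lists of gene functions and families, 15 held at least 1 of the genes and 13 held none, and the share of the tested genes of a list ranged up to 8.47%, beside 1.37% of all genes tested. The list of the highest share was receptor tyrosine kinase and MAPK signaling, with 5 of 59 genes tested. EGFR, the receptor of epidermal growth factor, was at 70.7 and 64.2 CPM in siControl, 177 and 174 CPM in siTARG1 and 178 to 212 CPM in the RACK1 lines. FGFR1 was at 71.1 and 72.5 CPM in siControl, 148 and 134 CPM in siTARG1 and 253 to 271 CPM in the RACK1 lines, and the related receptor FGFR2 was at 24 and 26.5 CPM, 49.0 and 56.9 CPM and 52.3 to 57.9 CPM. The fold of the 6 other libraries over siControl was 2.81 for EGFR, 3.07 for FGFR1 and 2.14 for FGFR2. Downstream of receptors, PTK2, the focal adhesion kinase, was at 52.5 and 50.3 CPM in siControl, 131 and 130 CPM in siTARG1 and 167 to 180 CPM in the RACK1 lines. RPS6KA1, a ribosomal S6 kinase that ERK activates, was at 34.6 and 32.4 CPM in siControl, 74.5 and 64 CPM in siTARG1 and 87.0 to 98.9 CPM in the RACK1 lines.

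Adhesion and matrix genes gave 3 of 107 genes tested. LAMB3, a chain of laminin in the basement membrane, was at 9.95 and 8.73 CPM in siControl, 24.8 and 20.1 CPM in siTARG1 and 45.0 to 54.2 CPM in the RACK1 lines. ITGB6, an integrin chain of epithelia, was at 6.26 and 6.57 CPM, 12.7 and 14.5 CPM and 13.1 to 19.5 CPM. PCDH1, a protocadherin, was at 6.31 and 5.14 CPM, 12.1 and 10.8 CPM and 35.8 to 39.9 CPM. CLDN1, a tight junction claudin and the 1 gene of 28 tested on the list of epithelial-mesenchymal state, was at 11.2 and 11.5 CPM in siControl, 22.0 and 23.1 CPM in siTARG1 and 46.9 to 58.2 CPM in the RACK1 lines. In PCDH1, LAMB3 and CLDN1 the siTARG1 libraries lay below all RACK1 libraries, and in ITGB6 the 2 overlapped.

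Caveolin genes were singled out after their values were seen. CAV2 was at 6.85 and 9.25 CPM in siControl, 33.6 and 45.9 CPM in siTARG1 and 37.4 to 44.8 CPM in the RACK1 lines. CAV1, the main structural caveolin, was at 4.08 and 5.75 CPM in siControl, 16.0 and 18.2 CPM in siTARG1 and 32.2 to 39.2 CPM in the RACK1 lines. CAVIN1, which coats caveolae, was at 9.48 and 8.22 CPM, 21.5 and 18.7 CPM and 28.6 to 30.7 CPM. CAV1 and CAV2 are neighbours on chromosome 7 of GRCh37, from 116165048 to 116201233 and from 115927434 to 116148595.

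Membrane traffic and small GTPases gave 7 of 253 genes tested among GTPases and their regulators, and 2 of 98 on the list of membrane traffic and autophagy. RAB1A, a GTPase of transport from the endoplasmic reticulum to the Golgi, was at 50.1 and 53.4 CPM in siControl and at 94.7 to 112 CPM in the other 6 libraries. RAB6B, of retrograde Golgi transport, was at 6.98 and 7.87 CPM in siControl and at 17.7 to 19.5 CPM in the others. DENND1B, an activator of Rab GTPases, was at 7.88 and 8.83 CPM in siControl and at 23.7 to 29.6 CPM in the others. In these 3 genes siTARG1 and the RACK1 lines overlapped, and in STX3, a plasma membrane syntaxin at 48.6 and 43.1 CPM in siControl, the other 6 libraries lay between 83.9 and 94.1 CPM. The kinesins KIF5C and KIF3A, of 73 motor genes tested, were at 7.84 and 8.29 CPM and at 19.0 and 19.8 CPM in siControl, and at 3.16 and 1.95 times their siControl means in the other 6 libraries.

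Other lists held 5 or fewer of the genes. Ubiquitin ligases and deubiquitinases gave 5 of 343 genes tested (1.46%), among them UBE2V2, KLHL2, UBE2J1 and RNF144B with folds of 2.66, 2.45, 2.06 and 2.57. Solute carriers gave 5 of 270 (1.85%), among them SLC35A5, SLC2A10, SLC7A6 and SLC25A30 with folds of 2.46, 2.47, 2.03 and 2.09. The list of insulin, PI3K, AKT and mTOR signaling held 1 of 44, the catalytic subunit PIK3CD with a fold of 2.9. DNA repair held 1 of 66, NBN of the MRN complex that senses double-strand breaks, with a fold of 2.97. Translation factors held 1 of 48, EIF5A2, and chromatin modifiers 1 of 142, SETD7. Zinc finger proteins held 0 of 511, ribosomal proteins 0 of 154, respiratory chain subunits 0 of 85, mitotic genes 0 of 50, DNA replication 0 of 50 and cholesterol and fatty acid synthesis 0 of 39. The foreign nucleic acid and interferon list held 0 of 43, and the list of ADP-ribose and NAD enzymes, the system TARG1 belongs to, held 0 of 32. With 1.37% of all genes tested in the set, a count of 0 is near that share in the shorter lists and was not read as a result. The lists were not cut to genes past the floor of 5 CPM that the rule asked for. A count of 0 in the longer lists was therefore not read as a result either. The lists were compared by counts and none was tested as a set.

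The 3′ UTRs of the genes had a longer median than those of all genes tested, which was not tested. By the lengths in the tables, the median was 2218 bases (quartiles 1196 and 3691), beside 1139 bases (443 and 2495) over all genes tested and 1298 bases over the 10183 rows past the floor of 5 CPM. The genes low in siTARG1 only had a median of 1857 bases. A 3′ UTR over 1000 bases was found in 152 of the 192 genes (79.2%) and in 53.8% of all genes tested, and one over 5000 bases in 27 genes (14.1%) and in 7.38%. Under 500 bases were 19 genes (9.9%), against 27.8% of all genes tested. Of the 10183 rows past the floor, 57.9% were over 1000 bases, 8.31% over 5000 bases and 24% under 500 bases. The coding sequences had medians of 1306 bases in the 192 genes and 1385 bases in all genes tested. The rule used no length, although its floor on CPM alone moved the median from 1139 to 1298 bases.

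**Figure D3:**
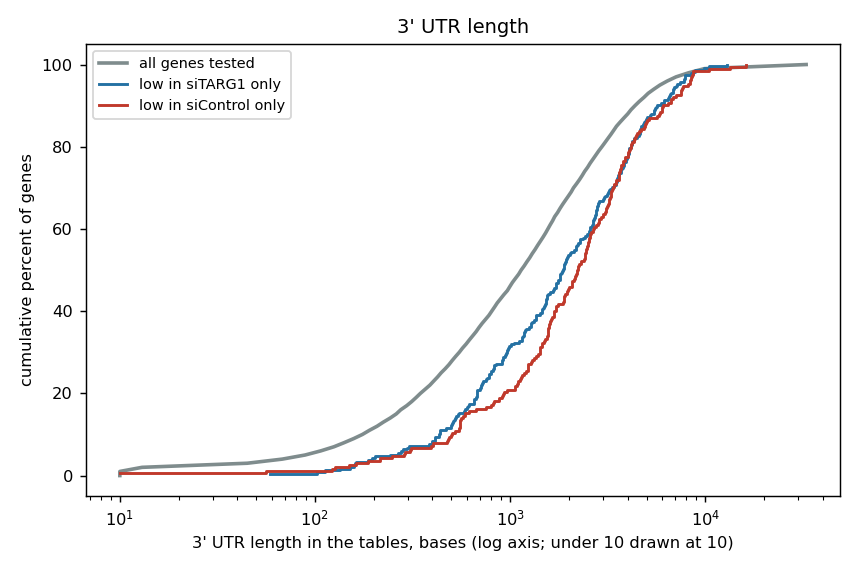
Cumulative percent of genes (y axis) by 3′ UTR length in bases (x axis, log scale, lengths under 10 drawn at 10) for the 192 genes low in siControl only (red), the 235 genes low in siTARG1 only (blue) and all genes tested (grey). Both colored curves lie to the right of the grey one, with medians of 2218, 1857 and 1139 bases.

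The longest 3′ UTRs were those of LPP (16192 bases), SOD2 (13436 bases), PURA (10469 bases) and PAQR3 (8661 bases). LPP, a focal adhesion protein, was at 38.4 and 40.4 CPM in siControl and at 91.7 to 139 CPM in the other 6 libraries. SOD2, the mitochondrial superoxide dismutase, was at 47.4 and 50.3 CPM in siControl and at 99.2 to 118 CPM in the others. PURA, a single-strand nucleic acid binding protein, was at 18.8 and 19.4 CPM in siControl and at 38.7 to 56.7 CPM in the others. At the short end, the tables gave AHNAK2 a length of 0 bases, MTERF3, which acts in mitochondrial ribosome assembly, 56 bases, NIPAL3 122 bases, and the row of RNASET2, which joins 1 more gene, 127 bases. MTERF3 was at 7.43 and 7.5 CPM in siControl and at 14.2 to 20.8 CPM in the others, so a short 3′ UTR by these lengths did not keep a gene out. The longest annotated 3′ UTRs used for the word search can differ from these lengths. They held 2 GAATATA sites in MTERF3 and 1 in NIPAL3.

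The lower siControl level was seen in coding counts as well as in 3′ UTR counts. Both are part of the exon counts that the rule used, so these ratios follow largely from the choice and are a description. In 189 genes with a mean of at least 50 coding counts in the other 6 libraries, the median ratio of those libraries to siControl was 2.58 for coding counts and the lowest was 1.4. In 186 genes with as many 3′ UTR counts, the median ratio was 2.8 and the lowest was 1.58. Over all genes tested the medians were 1.01 and 1.06. The share of all exon counts that fell in 3′ UTRs was between 30.3% and 33.2% in the 8 libraries. A gene with unlike ratios was DNM3, a dynamin of membrane fission, with 1.41 for coding and 4.16 for 3′ UTR counts, whose cause was not tested.

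Genes outside the set were also divided by 3′ UTR length. In 5 equal classes of 3′ UTR length, the median log2 ratio of the RACK1 lines to siControl was 0.009 in the shortest (1 to 370 bases) and 0.059 in the longest (2963 bases or more), and the log2 fold change of siTARG1 against siControl had medians between -0.031 and 0.032. Of the 192 genes, 12 fell in the shortest class and 71 in the longest.

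The RACK1 lines were also compared with each other, a contrast that the rule did not set. Their 4 libraries were among the 6 whose lowest CPM entered its ratio and its floor. The values of this comparison are therefore no independent test. None of the 192 genes was called between RACK1-Mut and RACK1-WT at an adjusted p under 0.05 by edgeR's quasi-likelihood test, and of all 14024 genes tested 1 was, or 0.00713%. At an unadjusted p under 0.05 there were 13 of the 192 genes (6.77%) and 4.9% of all genes tested, and DESeq2 called 1 of the 192 genes, AHNAK2. The median log2 fold change was 0.00126 in these genes and 0.00466 over all genes tested, and 99 genes were higher and 93 lower. Both RACK1-Mut libraries lay above both RACK1-WT libraries in 37 of the 192 genes (19.3%), beside 17.6% of all genes tested, and below them in 37 (19.3%), beside 20.0%. AHNAK2 had the smallest p of the 192, with 46.6 and 52.7 CPM in RACK1-Mut against 71.5 and 71 CPM in RACK1-WT, a log2 fold change of -0.51 (standard error 0.0842, edgeR adjusted p = 0.11, unadjusted p = 2.9e-05). L1CAM followed, with a log2 fold change of -0.42 (standard error 0.098, edgeR adjusted p = 0.39). Both values were lower in each RACK1-Mut library than in each RACK1-WT library. In a fit of the 4 RACK1 libraries alone, 3 of the 192 genes passed, AHNAK2, L1CAM and CTSL, and 49 of all genes.

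The siTARG1 cells were compared with the mean of both RACK1 lines, a contrast the rule did not set. The lowest level among these libraries entered both its ratio and its floor. The calls, medians and p-values of this contrast therefore describe genes chosen on these same levels, and are no independent test. Of the 192 genes, 30 were called higher in siTARG1 (15.6%), beside 35.4% of all genes tested, and 101 were called lower (52.6%), beside 35.0% of all genes tested. The median log2 fold change was -0.247 in the 192 genes and 0.00382 over all genes tested. Both siTARG1 libraries lay above all 4 RACK1 libraries in 35 genes (beside 36.8% of all genes tested), below them in 105 genes (beside 37.7%), and overlapped them in 52 genes (27.1%), beside 25.5% of all genes tested. The siTARG1 mean was within 1.5-fold of the RACK1 mean in 134 genes, and the RACK1 mean was at least 2 times the siTARG1 mean in 27.

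The genes higher in siTARG1 with the smallest p were INPP5A, FNIP2, PAQR3 and DNM3. INPP5A, an inositol phosphatase, was at 67.2 and 59.0 CPM in siTARG1, 32.4 to 36.8 CPM in the RACK1 lines and 18.9 and 18.5 CPM in siControl, and its log2 fold change of siTARG1 against the RACK1 lines was 0.85 (standard error 0.0664, edgeR adjusted p = 5.2e-08). FNIP2, a folliculin partner of nutrient signaling, was at 41.2 and 42.6 CPM in siTARG1, 22.9 to 25.6 CPM in the RACK1 lines and 13.4 and 13.3 CPM in siControl. PAQR3, a Golgi membrane protein, was at 65.4 and 82.2 CPM, 36.9 to 42.1 CPM and 18.3 and 19.6 CPM in the same order, with a log2 fold change of 0.88 (standard error 0.0875, edgeR adjusted p = 7e-07). DNM3 was at 30.3 and 34.7 CPM, 19.7 to 21.0 CPM and 11.7 and 11.4 CPM. In these 4 genes the groups formed 3 separate levels, with siTARG1 the highest.

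The genes lower in siTARG1 with the smallest p were PTGS1, WSCD2, AHNAK2 and GLDC. The log2 fold change of siTARG1 against the RACK1 lines was -4.52 for PTGS1 (standard error 0.0859, edgeR adjusted p = 1.1e-13), and the siTARG1 level was 0.0432 times that of the RACK1 lines. WSCD2 was at 6.68 and 7.02 CPM in siTARG1, 53.7 to 66.0 CPM in the RACK1 lines and 3.78 and 3.9 CPM in siControl, with a log2 fold change of -3.12 (standard error 0.0846, edgeR adjusted p = 1.8e-12). GLDC, the decarboxylase of glycine cleavage, was at 14.1 and 11 CPM in siTARG1, 77.6 to 110 CPM in the RACK1 lines and 3.53 and 4.0 CPM in siControl. For AHNAK2 the log2 fold change was -2.61 (standard error 0.088, edgeR adjusted p = 1.5e-11). In these genes both siRNA groups were far below the RACK1 lines, with siControl the lower. The near-identical copies MAGEA2 and MAGEA2B, at 0.537 and 0.539 times the RACK1 lines in siTARG1, share reads and cannot be counted apart.

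**Figure D4:**
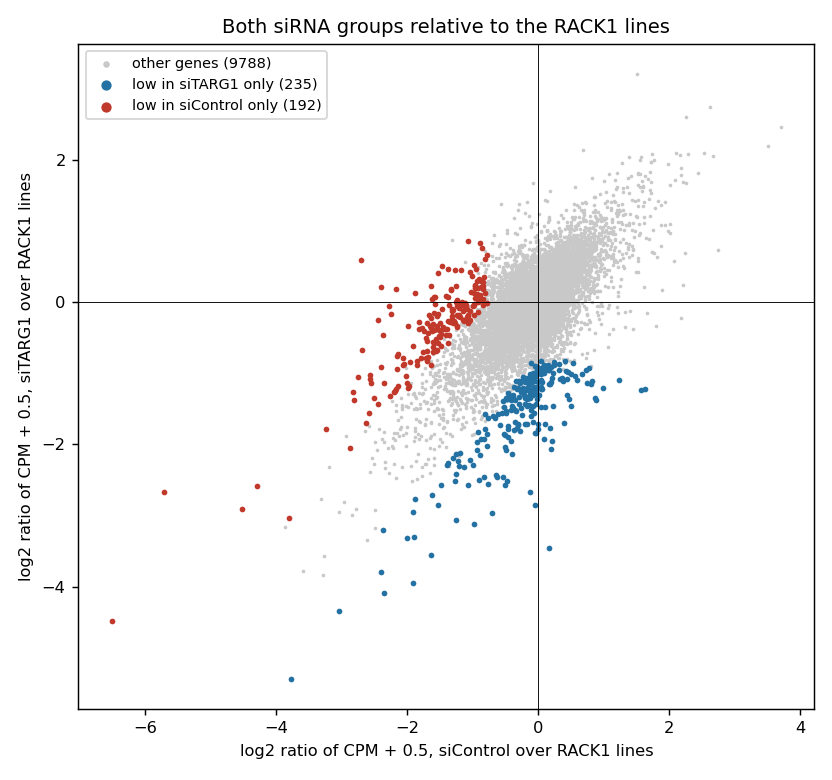
Log2 ratio of mean CPM + 0.5 of siControl (x axis) and siTARG1 (y axis) over the RACK1 lines, for genes low in siControl only (red, 192), genes low in siTARG1 only (blue, 235) and other genes past the floor (grey). The red genes lie left of the cloud because the rule chose them there, most of them near or below 0 on the y axis, and both axes share the RACK1 libraries.

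The genes bear on the comparison of siTARG1 with siControl, in which each of them counts as raised in siTARG1. All 192 were called higher in siTARG1, beside 23.5% of all genes tested, which the rule itself sets. Of the genes called higher by at least 1.67-fold, the inverse of 0.6, which were 957 or 6.82% of all genes tested, 191 (20.0%) belonged to the set. With a ratio threshold of 0.5 in the rule they were 8.36%. By the mirrored rule, with the lower siTARG1 CPM times 0.6 above the highest of the other 6 libraries and at least 5 CPM, 62 of the 957 genes (6.48%) were high in siTARG1 only, and 704 (73.6%) met neither rule. Of the 487 raised genes that had at least 5 CPM in each of the 6 libraries other than siControl, 39.2% belonged to the set and 39 were high in siTARG1 only. This floor is part of the rule, so all 191 genes of the set passed it. The rise of their share from 20.0% follows from that filter.

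The RACK1 lines gave a reference that shared no library with either siRNA group. Of the 957 raised genes, the RACK1 mean was nearer to the siTARG1 mean than to the siControl mean in 636 (66.5%) and nearer to the siControl mean in 321, on the log2 scale of CPM + 0.5. These counts include the genes that were chosen on these same levels, as the RACK1 mean was nearer to siTARG1 in all 192 genes of the set. Of the 766 raised genes outside the set, it was nearer to siTARG1 in 445 (58.1%). The 62 genes high in siTARG1 only were not taken out of these, so this share still depends on which genes were removed. Of the 984 genes called lower in siTARG1 by as much, the RACK1 mean was nearer to siControl in 656 (66.7%), and 235 of the 984 (23.9%) were low in siTARG1 only. Without these 235, it was nearer to siControl in 424 of 749 genes (56.6%). Genes high in siControl only were likewise not taken out, and the same limit holds. The RACK1 lines are no untreated control of the siRNA cells, and whether a raised level belonged to the TARG1 siRNA or a lowered one to the control siRNA cannot be told apart for a single gene without cells that received no siRNA.

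**Figure D5:**
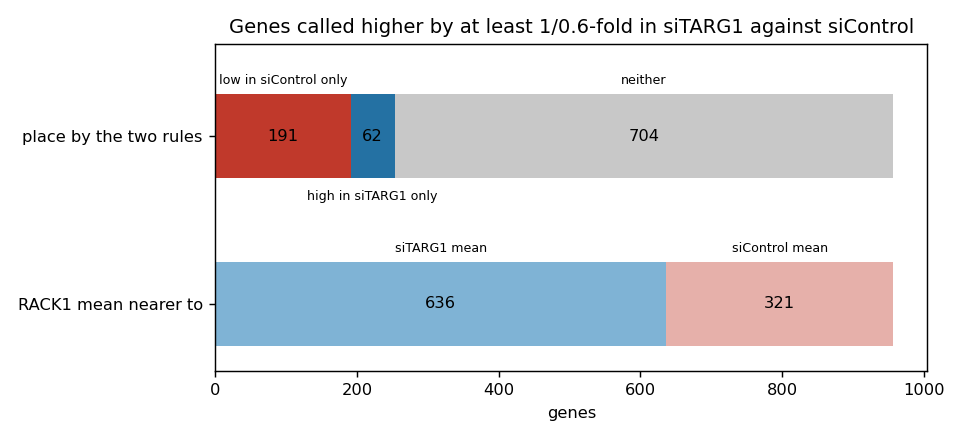
Number of genes (x axis) among the 957 called higher by at least 1.67-fold in siTARG1 against siControl. The upper bar splits them into 191 low in siControl only, 62 high in siTARG1 only and 704 that met neither rule, and the lower bar into 636 whose RACK1 mean was nearer to siTARG1 and 321 nearer to siControl.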

How the data were processed

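The authors removed rRNA reads with Bowtie 1.1.2, aligned the rest to GRCh37 with Gencode 24 transcripts by TopHat2 2.1.1 (versions from the submitters' processing notes), and counted with Plastid. The deposited values used here are estimated counts per gene over exons, coding sequence and 3′ UTR. A read could match up to 64 places, so near-identical paralogs are uncertain. Deposited RPKM were not used.

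Rows were named by transcript from Gencode 44 on GRCh37, which also gave the 3′ UTR sequences. Counts were rounded and tested with edgeR 4.0.16 (quasi-likelihood, TMM, filterByExpr, all 8 libraries, 4 residual degrees of freedom). Adjusted p-values are Benjamini-Hochberg over all 14024 genes, and standard errors were derived from the log2 fold change and F. Alternatives included DESeq2 1.42.0. The fit and the word search were tested on simulated data.

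The genes, lists and words were chosen with earlier results of these data known. One gene that met the rule is not reported here. Genes named are the 12 with the lowest ratio, the 5 with the highest floor, the 3 on each side of the threshold, the 4 longest and 4 shortest 3′ UTRs, up to 4 per list, and up to 4 called in each direction against the RACK1 lines. Others, such as RPS6KA1 and RAB1A, were named outside these rules, and some genes that the rules gave, such as ARHGAP23, are not described. Kinases named RPS6K were taken off the ribosomal protein list.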

Additional observations from a re-analysis of the deposited data

How the results depend on the processing

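The number of genes low in siControl only was 192, and 80 with a ratio threshold of 0.5. It was between 193 and 242 when 1 library was left out. With TMM-normalized CPM 165 and with coding-sequence reads 157 genes were chosen, of which 165 and 132 were among the 192, and floors of 1 and 10 CPM gave 281 and 154 genes. The median 3′ UTR length stayed between 1753 and 2426 bases over these settings. The share of the set among genes raised in siTARG1 was 20.0%, between 19.8% and 20.8% without 1 library, and 8.36% with the threshold of 0.5.

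The count of genes that differed between RACK1-Mut and RACK1-WT, 1 in the fit reported, was 17 with DESeq2, 15 without the filter on low counts, 0 with at least 10 counts in every library (as TTN, the gene called, is not tested there), 2 with coding-sequence reads, 49 with the 4 RACK1 libraries only and between 0 and 9 without 1 library. Of the 192 genes, 1 was called with DESeq2, without the filter, and without each siRNA library in turn. The replicate numbers pair only 2 libraries per group. The deviations of same-numbered libraries correlated with r = 0.44 between siControl and siTARG1 and 0.0243 between the RACK1 lines, and with the replicate block 3 genes were called between the RACK1 lines. The block moved no other count of calls by over 1.5 times. Genes called against the RACK1 lines (9878) and called higher in siTARG1 against siControl (3297) stayed within 1.5 times under all alternatives run.

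Counting error limits genes such as L1CAM and MAGEC2, with few siControl counts, and 2 libraries per group limit the rest.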
